A study of Homo sapiens with 1 sample.

Results

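Kinesins of the KIF naming series were described in human neural progenitor cells by single-cell RNA-seq. The genes were chosen by symbol alone: KIF, a number, and at most 1 letter from A to C and 1 digit. This rule took 39 of the 33538 genes listed. By textbook role, 13 were grouped as mitotic kinesins, 15 as transport kinesins, 6 as cilium and Hedgehog kinesins and 5 as other kinesins. The symbol rule and the groups were set with earlier results of these data known, so counts by group are not an independent check. At 1 or more UMI per 1000000 UMIs (CPM) over all kept cells, 34 of the 39 were measured, and the other 5 are accounted for below.

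The study asked how HAR123, a human accelerated region within the gene SMG6, acts in the generation of neural progenitor cells (NPCs). The cells analysed were H9, an established human embryonic stem cell line, of genotype WT with the human HAR123 sequence (hHAR123). They had been differentiated into NPCs with dorsomorphin and SB431542, which block BMP and TGF-β signalling, and were taken before rosettes were picked. The study's methods state that clones were pooled for loading, so clones could not be told apart in the counts. Other genotypes were not analysed here. There was 1 library and thus no replicate: no test was run, and every interval below is an exact 95% interval that covers counting error only, with UMIs taken as independent.

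Kinesins are motor proteins that bind microtubules and use ATP to move along them or to change their ends. Mitotic kinesins build the spindle, align chromosomes and complete cytokinesis, and most of their genes are transcribed late in the cell cycle. Transport kinesins carry vesicles, organelles and RNA, and neurons depend on them for traffic along axons and dendrites. Kinesins of the cilium move cargo within it, trim it or pass on Hedgehog signals. Not all of them were put in the cilium and Hedgehog group: KIF3A, KIF3B and KIF17 were kept with the transport kinesins.

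The library held 14726 barcodes, of which 13925 (94.6%) had 2000 to 10000 genes and a mitochondrial share below 0.1. These kept cells had a median of 17900 UMIs and 314660383 UMIs in all. The following properties were used to sort them. The first was the level of TOP2A, a topoisomerase of dividing cells, in 4 steps of UMIs per 10000 of the cell: below 1 (6976 cells), 1 to under 3 (2509), 3 to under 10 (3310) and 10 or more (1130). The second was a contractile state, with ANXA1, TFPI2 and CTGF together at 5 or more per 10000 (1580 cells). The third was a newborn neuron-like state, with STMN2, INA, ELAVL4, NSG2, MYT1L and SNAP25 together at 5 or more per 10000 and at least 3 of the 6 found (83 cells). The 12258 cells in neither state were the comparison, and 4 cells that met both rules were left out. Depth moved with these groups. The median was 47149.5 UMIs in contractile cells, 13566 in newborn neuron-like cells and 16936.5 in neither, and it went from 15084.5 to 24170.5 UMIs over the TOP2A steps.

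The names of the states were compared with genes that the rules did not use. These lists were chosen with earlier results of these data known, so they are not an independent check. All 8 smooth muscle and YAP target genes checked (TAGLN, ACTA2, MYL9, CNN1, CYR61, TPM1, TPM2, ANKRD1) were 4.38 to 56.9 times as high in contractile cells as in neither. All 8 neuronal genes checked (DCX, TUBB3, ELAVL3, MAPT, STMN4, NHLH1, NEUROD1, RBFOX3) were 9.01 to 227 times as high in newborn neuron-like cells. The progenitor genes (SOX2, PAX6, NES and 5 others) summed to 652.6 CPM in newborn neuron-like cells against 1647.3 CPM in neither, and 6 of the 8 were at 0.5 times or less. LHX2 made up 259.8 CPM of that sum and was higher than in neither (1.59 times, 1.42 to 1.77). In contractile cells the sum was 1243.9 CPM, with SOX2 at 0.283 times, PAX6 at 0.375, SOX1 at 0.129 and LHX2 at 0.170 times the level in neither, and NES at 2.78 times. Markers of pluripotent, endodermal, epithelial, mesenchymal and endothelial cells summed to 5.83 to 7.825 CPM in the 3 groups, most of it EPCAM. TWIST1, the mesenchymal transcription factor among them, was at 3.06 CPM in contractile cells (234 UMIs) against 0.207 CPM in neither (14.8 times, 10.8 to 20.55), while DCN had 0 UMIs in contractile cells against 14 in neither. The part of these cells in the kinesin values was not tested.

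Kinesin transcripts made up 609417 UMIs. The transport group held 50.9% of them, the mitotic group 34.1%, the other kinesins 10.4% and the cilium and Hedgehog group 4.65%. Levels are UMIs of a 3′ library kit, 1 per captured molecule and not divided by length. Where along a gene the reads lay was not examined, nor was a dependence on gene length. The most abundant member was KIF5B, the kinesin-1 heavy chain found in most tissues, at 263 CPM. It was followed by KIF2A, which shortens microtubules at spindle poles and in growth cones, at 168.5 CPM, KIF5C at 132 CPM, KIF1B at 129.5 CPM, KIF20B at 119 CPM and KIF21A at 108 CPM. The cilium and Hedgehog genes were low by comparison, and the highest of them was KIF27 at 23.3 CPM. The 5 members under 1 CPM were KIF19 (181 UMIs), KIF4B (52), KIF25 (33), KIF12 (6) and KIF2B, which had 0 UMIs, where a floor of 3 counts allows a level of up to 0.00953 CPM. KIF4B is an intronless copy of KIF4A that shares 27.7% of its 31-base words with KIF4A transcripts, so reads of the pair may have been lost or placed with either gene. KIF15 overlapped TMEM42, a listed gene on the same strand.

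Most mitotic promoters held a sequence feature that the rule did not use. Many genes of G2 and mitosis carry a cell cycle genes homology region (CHR), spelled TTTGAA or TTTAAA, near their start, often with CCAAT boxes upstream. Promoters of 300 bases (250 before to 50 after the RefSeq start, GRCh38.p14) were at hand for 33 of the 39 genes, all 13 mitotic ones among them, and were not given here for KIF5A, KIF13B, KIF19, KIF21B, KIF26B and KIF27. On either strand, TTTGAA or TTTAAA was found in 11 of 13 mitotic promoters and in 2 of 12 transport promoters (KIF5B and KIF16B), against 24.0% of 34796 promoters of the same length. With CCAAT on either strand as well, the counts were 9 of 13 and 1 of 12 (KIF5B), against 9.29% of all. None of the 4 cilium and Hedgehog or 4 other promoters held a TTTGAA or TTTAAA. The 2 mitotic promoters without either spelling were those of KIF22 and of the undetected KIF2B, and KIF4B, among the 11, is a copy of KIF4A. A match is a string of letters, not a shown binding site.

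The matches nearest the start are shown for the 10 measured mitotic kinesins that had one, so that the spellings can be compared. They are listed by falling ratio between the top and bottom TOP2A steps (below). KIF22 had no match, and its rise with TOP2A was smaller than that of each of these 10 genes. The transport genes KIF5B and KIF16B had a match and rose less than KIF22, at 1.30 and 1.42 times against 4.43. Whether the motif has a part in the levels was not tested. Each window reads 5′ to 3′ on the strand of the gene, with the motif in capitals. TTCAAA is TTTGAA on the opposite strand.
KIF20A (chr5:138179059-138179088): cgcagcgcgtaaTTTAAAatattgtatctg
KIF2C (chr1:44739822-44739851): ttgcgcgcgggaTTTAAActgcggcggttt
KIF14 (chr1:200620733-200620762): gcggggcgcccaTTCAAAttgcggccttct
KIF4A (chrX:70290058-70290087): ctccgggacggaTTTGAAacttggcggtta
KIF23 (chr15:69414282-69414311): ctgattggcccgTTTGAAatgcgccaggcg
KIF18A (chr11:28108149-28108178): aagtggcttgggTTTGAAtattgtggttga
KIF11 (chr10:92593090-92593119): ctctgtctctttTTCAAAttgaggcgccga
KIF18B (chr17:44947754-44947783): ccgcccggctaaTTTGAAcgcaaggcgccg
KIF20B (chr10:89701602-89701631): tggccgccattgTTTGAAtttgaaaacggt
KIF15 (chr3:44761747-44761776): ccaagcgccaaaTTCAAAtttgcggccatc

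These motifs began between 55 bases before the start (KIF23) and 25 bases after it (KIF20B, which carried a second TTTGAA directly behind the first). The window of KIF4B is set here for comparison with that of its parent gene KIF4A, KIF4B itself having 52 UMIs.
KIF4B (chr5:155013746-155013775): ctctgggagggaTTTGAAacttggcggtta
In the transport gene KIF5B the match lay farther upstream, 140 bases before the start.
KIF5B (chr10:32056548-32056577): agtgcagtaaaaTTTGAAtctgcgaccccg

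With rising TOP2A, mitotic kinesins rose together and transport kinesins changed little. The summed level of the 13 mitotic genes was 195.0, 576.4, 1039.0 and 1751.5 CPM over the 4 steps, so cells at 10 or more held 8.98 times (8.85 to 9.12) the level of cells below 1. The summed level of the 15 transport genes was 957.4, 989.0, 1012.4 and 1023.4 CPM, a ratio of 1.07 (1.06 to 1.08). Of these 15 genes, 8 had intervals above 1 and 3 had intervals below 1. The mitotic share of all kinesin UMIs accordingly went from 13.6% to 56.5%. Over single cells, the median mitotic sum was 1.07, 5.35, 9.78 and 17.2 UMIs per 10000 along the steps, while the transport sum stayed between 9.08 and 9.95.

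All 11 measured mitotic kinesins were at least 2 times as high at the top step as at the bottom step, with intervals above 1. Among all 15762 genes at 1 CPM or more, 2.37% met the same rule, and the median ratio was 1.01 for all genes against 10.3 for the mitotic members. KIF20A, which carries the chromosomal passenger complex to the spindle midzone, had the steepest course, with 2.54, 9.13, 20.9 and 50.2 CPM along the steps and a ratio of 19.75 (17.5 to 22.3). KIF2C, which removes tubulin at kinetochores, reached 132.8 CPM from 8.60 CPM (15.4 times), and KIF14, a cytokinesis motor, 204.8 CPM from 13.8 CPM (14.9 times). The intervals of these 3 genes began at 14.1 or more, and those of the other mitotic kinesins ended at 11.7 or less.

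KIF4A, which sets the length of the midzone, and KIF23, a subunit of centralspindlin, both gave a ratio of 11.0. KIF18A, which damps chromosome movements at the metaphase plate, gave 10.3, KIF11, the motor that pushes spindle poles apart, 9.52, and KIF18B, which trims astral microtubules, 8.49. KIF20B, a cytokinesis motor, had the highest level of the group at every step, from 43.2 to 290.5 CPM, with a ratio of 6.72 (6.50 to 6.95). KIF15, which can stand in for KIF11, gave 6.66 (6.37 to 6.96), so that these 2 ratios could not be separated. KIF22, a chromokinesin that pushes chromosome arms from the poles, rose least, from 19.9 to 88.0 CPM (4.43 times, 4.19 to 4.68), and its interval lay below those of the other 10.

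**Figure D1:**
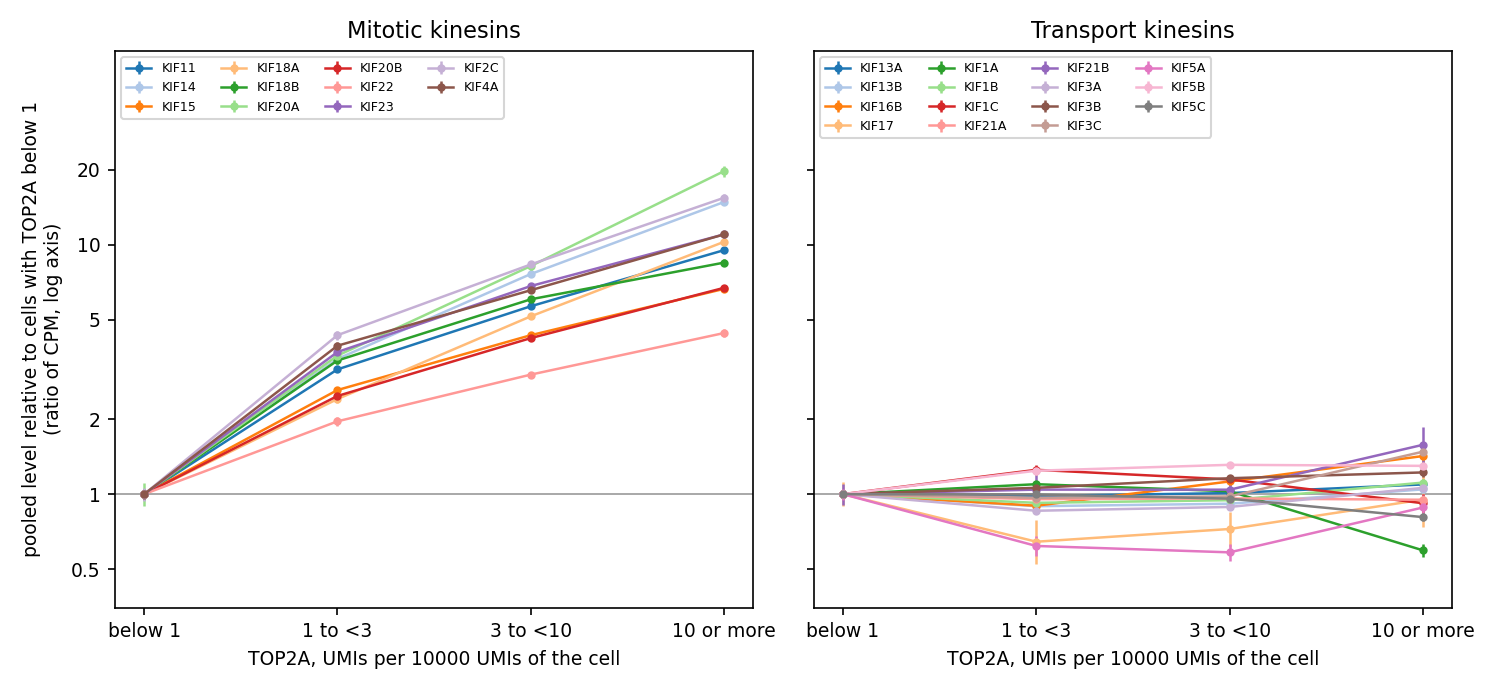
Pooled level of each kinesin at 1 CPM or more in cells of 4 TOP2A steps (x axis, UMIs per 10000), divided by its level in cells below 1 (y axis, log scale). Lines are the 11 mitotic genes (left) and the 15 transport genes (right), and bars are exact 95% counting intervals of the level in that step. All mitotic lines end between 4.43 (KIF22) and 19.75 (KIF20A), and all transport lines between 0.595 (KIF1A) and 1.58 (KIF21B).

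None of the 15 transport kinesins passed the 2-fold limit upwards or fell to 0.5 or less. These limits were met by 2.37% and 5.51% of all genes, so a count of 0 lies near these shares. The extremes of the group were KIF1A, a carrier of synaptic vesicle precursors, at 63.5 CPM in the bottom step and 37.8 CPM in the top step (0.595, 0.558 to 0.634), and KIF21B, a regulator of microtubule growth in neurons, at 3.23 and 5.09 CPM (1.58, 1.30 to 1.91). Without contractile and newborn neuron-like cells, KIF1A was at 50.75 CPM in the bottom step and 37.6 CPM in the top step (0.740). KIF2A, the sister gene of KIF2C, had 157.0 and 196.6 CPM (1.25), so the 2 microtubule-shortening kinesins differed widely in their course. KIF2A was grouped with the other kinesins although it also acts at spindle poles, and the statement that all measured mitotic kinesins passed the limit depends on that placement. Outside the transport group, KIF24, which holds back cilium assembly in cycling cells, was higher at the top step, with 30.9 against 13.2 CPM (2.34, 2.16 to 2.54). KIF26B was at 15.0 against 29.75 CPM (0.504, 0.455 to 0.557), just short of the limit. Without contractile and newborn neuron-like cells it was at 14.9 against 19.0 CPM (0.787, 0.707 to 0.874).

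Spindle proteins that work with these motors followed the same course. All 10 partners listed (AURKA, AURKB, TPX2, PRC1, RACGAP1, INCENP, BIRC5, CDCA8, ECT2, NUSAP1) were 4.81 to 20.5 times as high at the top step. CENPE and KIFC1, mitotic kinesins that the naming rule does not take, were 17.1 and 11.3 times as high. Also outside the rule, STARD9 was at 0.962 (0.892 to 1.04), KIFC2 at 0.801 (0.546 to 1.15) and KIFC3 at 0.373 (0.314 to 0.442). Without contractile and newborn neuron-like cells, the lowest ratio of these 5 genes was 0.785. None of the 9 measured transport partners, among them kinesin light chains and KIFAP3, passed the limit in either direction (0.751 to 1.21). Over all genes 2.37% passed upwards and 5.51% downwards, so the count for the transport partners lies near these shares. Leaving out contractile and newborn neuron-like cells gave 9.46 for the mitotic and 1.11 for the transport sum.

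Cells were also sorted by 3 short cell cycle lists, taking the list that stood highest over its mean and at 1.5 times that mean or more. These were a G1/S list (2545 cells), a list of S-phase histones (2711) and a G2/M list (2527), and 6142 cells were high in none. The G2/M list holds AURKA, CENPF and other genes of mitosis, and TOP2A was itself at 84.3, 445.7 and 853.7 CPM in these 3 groups. The mitotic sum was 410.9 CPM in G1/S, 915.2 CPM in S histone and 1335.8 CPM in G2/M cells, and 213.3 CPM where no list was high.

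The mitotic kinesins differed in how far they rose from S to G2/M cells. KIF20A was the only member at 2-fold or more, with 10.9 CPM in S histone cells and 38.8 CPM in G2/M cells (3.55, 3.28 to 3.85), a limit that 0.628% of 15441 genes passed. KIF18A gave 59.8 and 117 CPM (1.96, 1.89 to 2.03), KIF14 83.3 and 151 CPM (1.81), KIF2C 59.2 and 100.5 CPM (1.70), and KIF20B 147.7 and 240.7 CPM (1.63). KIF4A (1.59), KIF23 (1.40), KIF11 (1.26) and KIF22 (1.21) were intermediate. KIF15 was at 116.6 and 121.3 CPM (1.04, 1.01 to 1.07) and KIF18B at 83.3 and 82.6 CPM (0.992, 0.957 to 1.03), so the levels of these 2 genes in S histone and G2/M cells lay close together. KIF15 and KIF18B were 1.98 and 2.10 times as high in G2/M as in G1/S cells, where KIF20A was 9.88 times as high.

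**Figure D2:**
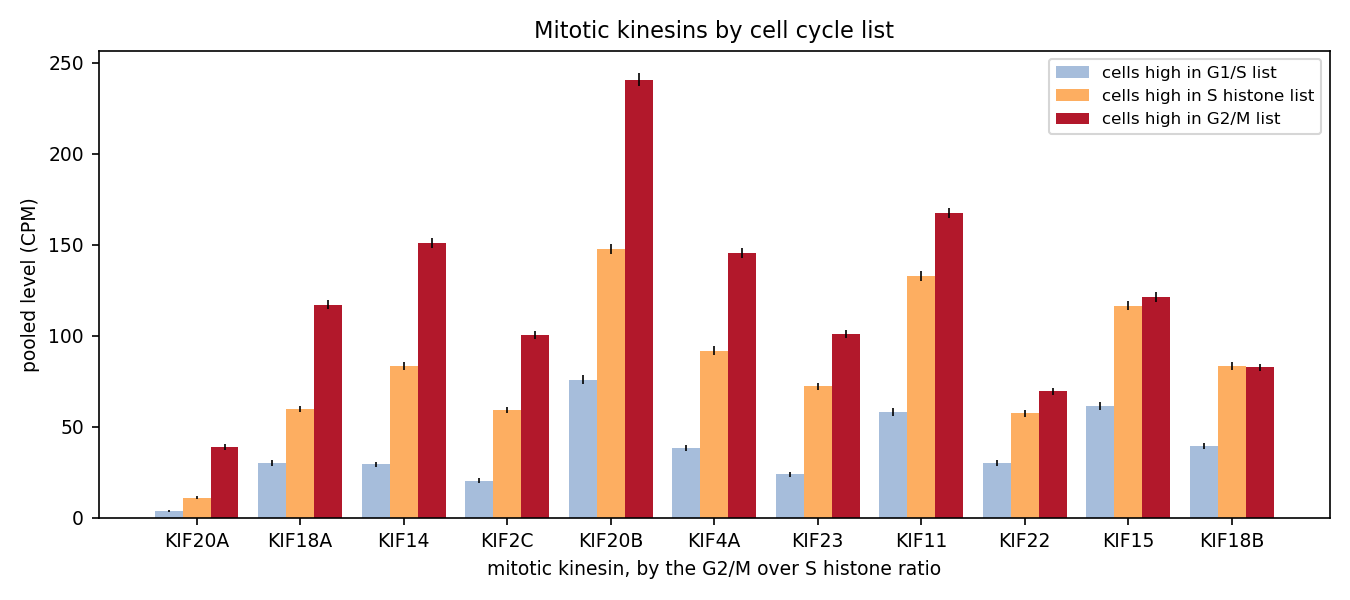
Pooled level in CPM (y axis) of the 11 measured mitotic kinesins in cells high in the G1/S list, the S histone list or the G2/M list, ordered by the G2/M over S histone ratio. Bars are levels with exact 95% counting intervals. KIF20A on the left went from 10.9 to 38.8 CPM between S histone and G2/M cells, and KIF18B on the right had 83.3 and 82.6 CPM.

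KIF24 took another course. Its level was 29.9 CPM in G1/S cells, 37.4 CPM in S histone cells and 22.4 CPM in G2/M cells, and 8.22 CPM in cells high in no list. It was thus highest with the histones, and G2/M cells held 0.599 times (0.563 to 0.638) the S histone level, the lowest ratio of the 34 measured kinesins.

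The newborn neuron-like cells held fewer mitotic and more transport kinesin transcripts. Among their 3523 kinesin UMIs, 77.9% were of transport and 6.47% of mitotic genes, against 48.5% and 35.8% in neither. The transport sum was 2148 CPM against 949.9 CPM (2.26 times, 2.18 to 2.35), and the mitotic sum 178.4 CPM against 700.9 CPM (0.255, 0.223 to 0.290). In single cells the median transport sum was 20.75 UMIs per 10000, with quartiles of 15.1 and 27.4, against 9.16 in neither, and 40 of the 83 cells held no mitotic kinesin UMI.

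The rise in transport kinesins was carried by 6 of 15 genes at 2-fold or more, with intervals above 1, where 8.95% of 15695 genes passed. KIF5C, a kinesin-1 heavy chain enriched in neurons, was at 782.5 CPM against 130.3 CPM (6.01, 5.63 to 6.40) and was found in 82 of the 83 cells. KIF5A, the other neuronal heavy chain, was at 97.0 against 10.4 CPM (9.35, 7.74 to 11.2). After thinning each cell to 5000 UMIs, KIF5C was found in 93.9% of newborn neuron-like cells against 45.3% in neither, and KIF5A in 39.0% against 5.66% in neither and 1.90% in contractile cells. KIF5B, the heavy chain of most tissues, was at 209.7 against 226.4 CPM (0.926, 0.818 to 1.04), so its interval included 1.

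The make-up of kinesin-1 therefore differed between states. KIF5C supplied 71.8% (69.4 to 74.2) of the heavy chain UMIs in newborn neuron-like cells, 35.5% (35.2 to 35.8) in neither and 24.97% (24.5 to 25.4) in contractile cells. KIF5B supplied 19.25%, 61.7% and 74.3% in the same order, and KIF5A 8.91%, 2.83% and 0.717%.

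Kinesin-2 is built from KIF3A with either KIF3B or KIF3C, joined by KIFAP3. KIF3A was at 176.9 against 68.4 CPM (2.59 times), KIF3C at 57.9 against 17.3 CPM (3.34 times) and KIF3B at 86.1 against 61.7 CPM (1.40, 1.15 to 1.68). The intervals of KIF3C (2.62 to 4.21) and KIF3B did not overlap. KIFAP3 was at 94.7 against 24.8 CPM (3.82 times, 3.17 to 4.58), with an interval that overlapped that of KIF3C.

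Of the KIF1 genes, which carry vesicles and mitochondria, KIF1B was at 328.7 against 132.6 CPM (2.48, 2.25 to 2.73), KIF1A at 87.6 against 49.9 CPM (1.76, 1.45 to 2.12) and KIF1C at 7.04 against 19.4 CPM (0.363, 0.166 to 0.691). KIF1C, linked to Golgi and integrin traffic, was the single transport kinesin at 0.5 times or less, from 9 UMIs. KIF21B was at 28.95 against 3.58 CPM (8.08, 5.65 to 11.2), while its paralog KIF21A was at 190.2 against 111.0 CPM (1.71, 1.504 to 1.94). The endosome motors KIF13A, KIF13B and KIF16B lay between 0.576 and 0.902, and KIF17, a dendritic motor, had 6 UMIs (2.55, 0.930 to 5.59).

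**Figure D3:**
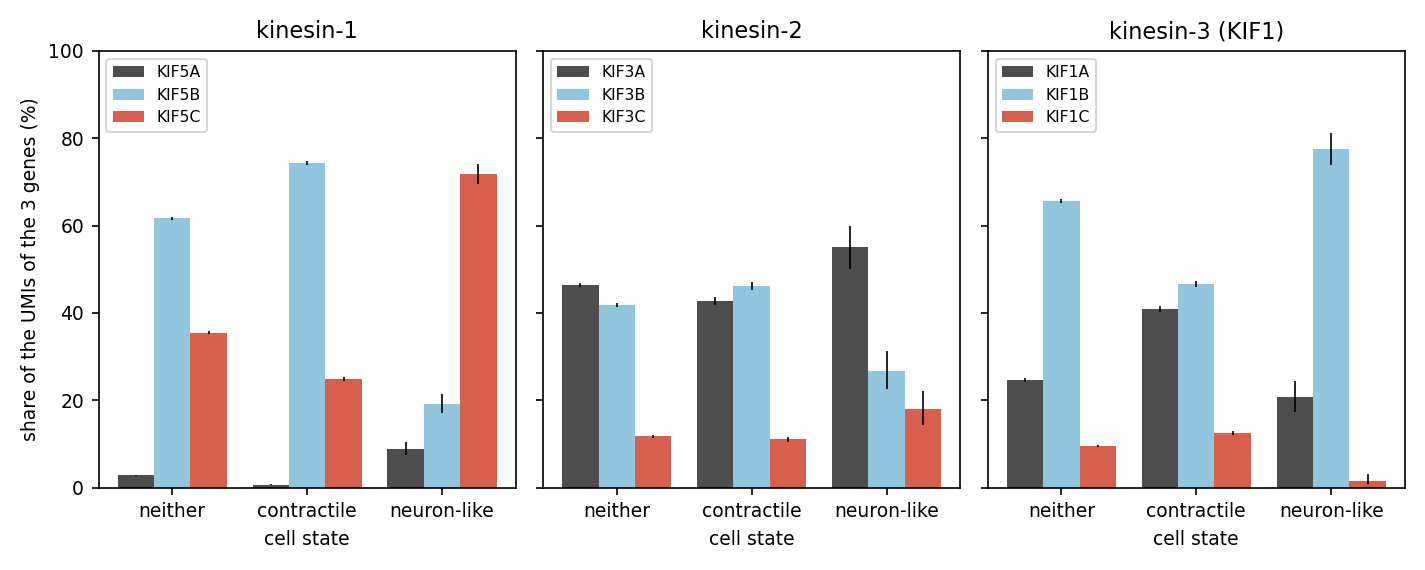
Share of the UMIs of 3 paralogs (y axis, percent) in cells of neither state, contractile cells and newborn neuron-like cells, for kinesin-1 heavy chains, kinesin-2 and the KIF1 genes. Bars carry exact binomial 95% intervals. KIF5C went from 35.5% in neither to 71.8% in newborn neuron-like cells, and KIF1A from 24.7% in neither to 40.9% in contractile cells.

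Some partners of transport kinesins were higher as well. KIFAP3, MAPK8IP1 (3.59), KLC1 (2.58) and TRAK2 (2.32), which are a kinesin-2 subunit, a cargo scaffold, a kinesin-1 light chain and a mitochondrial adaptor, passed 2-fold, as 4 of 9 measured partners. Over all genes 8.95% passed. The other 5 lay between 1.43 and 1.90. The median ratio was 1.76 over the 15 transport kinesins and 1.90 over the 9 partners, against 0.932 over all genes.

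All 11 measured mitotic kinesins had intervals below 1 in newborn neuron-like cells, and 10 were at 0.5 times or less, where 11.3% of all genes were. They went from KIF23 at 5.48 against 47.6 CPM (0.115, 0.0463 to 0.237) to KIF20B at 34.4 against 120.9 CPM (0.285). KIF22, at 22.7 against 44.1 CPM, gave 0.515 (0.345 to 0.740). TOP2A itself was at 0.235 times its level in neither. Of the 228 mitotic kinesin UMIs in these cells, 166 came from the 12 cells with TOP2A at 1 or more.

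Within cells of TOP2A below 1, 71 newborn neuron-like cells were set beside 6161 cells of neither state. The transport sum was 2.46 times as high (2.36 to 2.56), with KIF5C at 6.36, KIF5A at 7.97 and KIF21B at 10.6, and the 6 genes named were again at 2-fold or more. The background was 8.78% of genes. The mitotic sum was at 0.341 (0.261 to 0.437), and 7 of 11 mitotic genes were at 0.5 times or less against 11.6% of all genes. These 7 rested on few counts, the mitotic sum being 62 UMIs. The step caps TOP2A and does not make it equal. A TOP2A UMI was found in 29.3% of all 6976 cells of the step. Of the 83 newborn neuron-like cells 25.3% held one, and 12 of these were at 1 or more and so outside the step. The mitotic ratio was therefore not taken at equal TOP2A.

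KIF26B, an atypical kinesin of WNT5A-ROR signalling, belonged to none of the motor groups and was at 125.2 CPM against 17.7 CPM in neither (7.07, 6.00 to 8.28). It was found in 35 of the 83 cells, and its median in single cells was 0, so the level was uneven among them. Its paralog KIF26A was at 8.61 against 9.69 CPM (0.889, 0.443 to 1.59), and KIF2A at 182.3 against 178.5 CPM (1.02, 0.894 to 1.16). In the cilium and Hedgehog group, the 5 measured genes had intervals that included 1 (0.523 to 1.36). KIF19, a regulator of cilium length under 1 CPM in all kept cells, had 11 UMIs in these 83 cells against 158 in the 12258 (12.9, 6.31 to 23.7). Within cells of TOP2A below 1 it had 8 against 100 UMIs, and the ratio was 8.035.

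**Figure D4:**
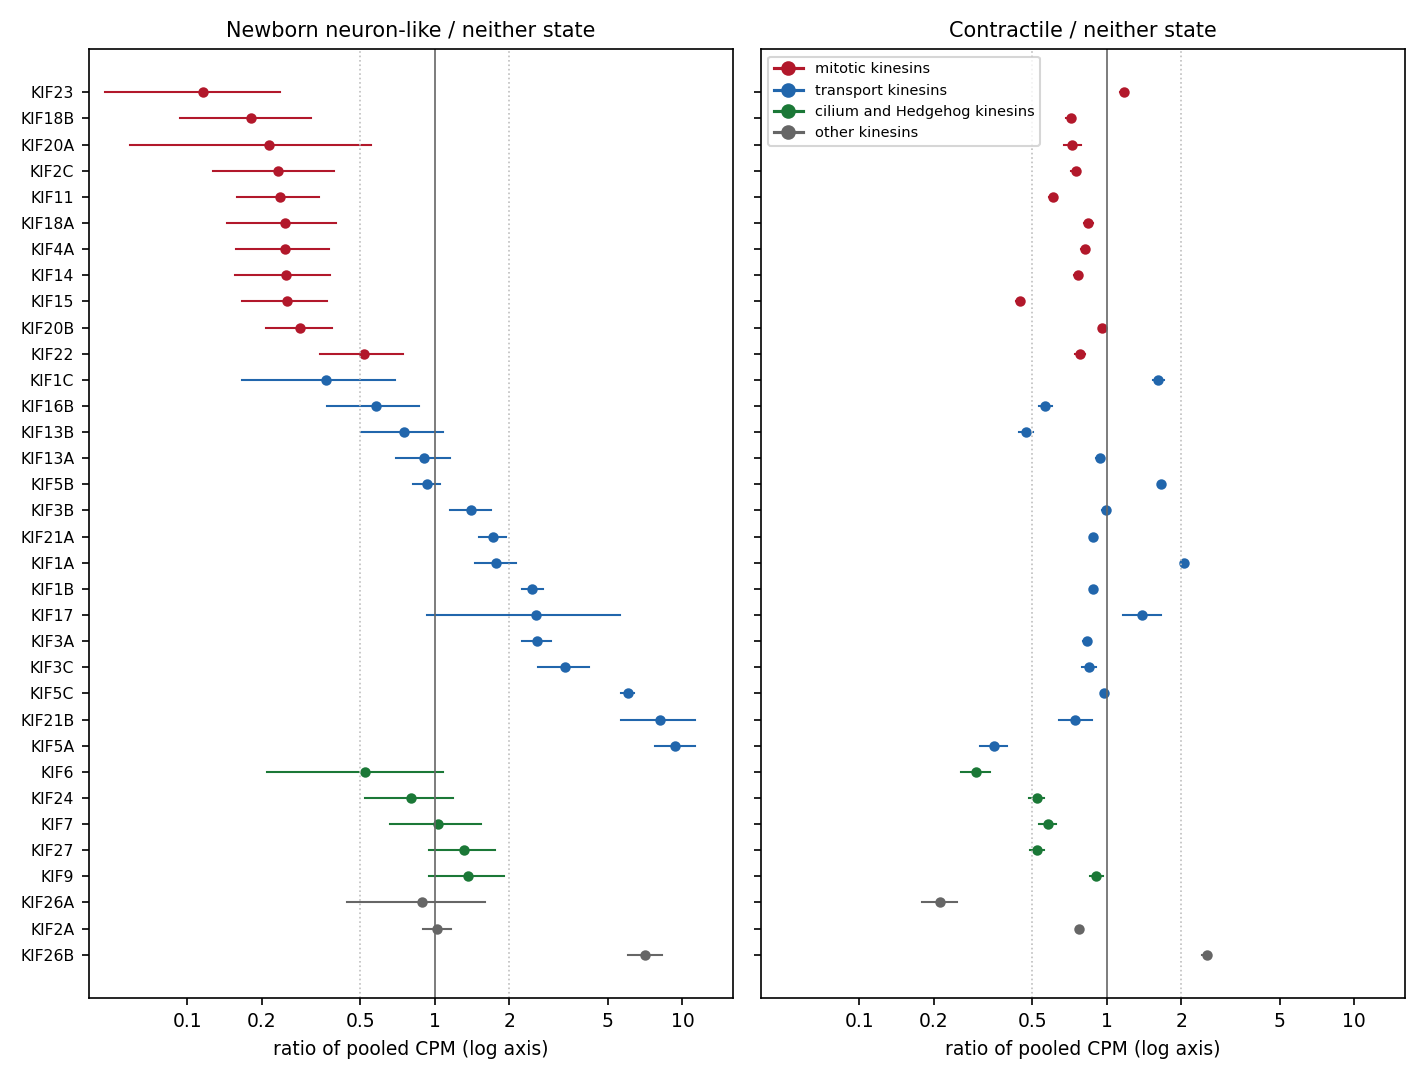
Ratio of the pooled level in newborn neuron-like cells (left) and contractile cells (right) to that in cells of neither state, on a log axis, for the 34 kinesins at 1 CPM or more. Points are ratios and lines exact 95% counting intervals, coloured by group, with dotted lines at 0.5 and 2. On the left all mitotic points lie below 1 and KIF5A is farthest right at 9.35. On the right most points lie between 0.5 and 2.

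In contractile cells 1 of the 15 transport kinesins was at 2-fold or more and 2 were at 0.5 times or less, shares no larger than those over all genes (7.14% and 20.1%). The transport sum was 1077.5 against 949.9 CPM (1.13, 1.13 to 1.14) and the mitotic sum 541.8 against 700.9 CPM (0.773, 0.765 to 0.781), with a median over all genes of 0.805. Of the 15 transport genes, 10 had intervals below 1 and 4 above 1, and their median ratio was 0.88. The transport sum thus lay above 1 while most of its genes were lower, and its most abundant member, KIF5B, was at 376.9 against 226.4 CPM. In single cells the mitotic sum had a higher median in contractile cells, at 4.56 UMIs per 10000 (quartiles 1.61 and 7.19) against 3.495 (0.864 and 9.34) in neither. The contractile cells were deeper, with a median of 47149.5 UMIs against 16936.5 in neither, and these quartiles were not set at equal depth. After thinning to 5000 UMIs, 22.6% of contractile cells and 31.2% of the others held no mitotic kinesin UMI. Counted as UMIs per cell, both sums were higher in contractile cells, at 2.84 and 1.94 times, since these cells held more UMIs in all. The pooled level thus gave one direction for the mitotic sum, and the median cell and the amount per cell gave the other. The median, like the pooled value, is scaled to the UMIs of the cells. Cells with TOP2A at 10 or more numbered 1123 in neither and 6 in the contractile state. In cells thinned to 5000 UMIs the mean mitotic sum was 2.44 UMIs in contractile cells against 2.90 in neither. For the amount per cell, a change per cell and a change in the rest of the RNA cannot be told apart.

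At 2-fold or more were KIF1A, at 102.4 against 49.9 CPM (2.05, 2.00 to 2.11), and KIF26B, at 44.9 against 17.7 CPM (2.53, 2.42 to 2.65), where 7.14% of 15606 genes passed. The median of KIF26B in single contractile cells was 0. KIF1A thereby made up 40.9% of the KIF1 transcripts of contractile cells, against 24.7% in neither. KIF5B (376.9 against 226.4 CPM, 1.67) and KIF1C (31.3 against 19.4 CPM, 1.62) were higher without reaching the limit. KIF1C and KIF5A thus lay on opposite sides of 1 in the 2 states. KIFC3, a minus-end motor of cell junctions outside the naming rule, was at 40.6 against 5.26 CPM (7.72, 7.23 to 8.26).

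At 0.5 times or less were 5 measured members, where 20.1% of all genes were. KIF26A was at 2.05 against 9.69 CPM (0.212), KIF6, a gene of motile cilia, at 3.10 against 10.5 CPM (0.296), and KIF5A at 3.64 against 10.4 CPM (0.350). KIF15 was at 37.4 against 83.8 CPM (0.446, 0.429 to 0.464) and KIF13B at 14.4 against 30.3 CPM (0.474, 0.445 to 0.505). The Hedgehog regulator KIF7 (10.5 against 18.2 CPM, 0.578), its paralog KIF27 (0.524) and KIF24 (0.522) did not reach the limit, and the cilium and Hedgehog sum was 58.6 against 100.2 CPM (0.585, 0.566 to 0.604). As UMIs per cell the sum was at 1.465 times, KIF7 at 1.45, KIF27 at 1.31 and KIF24 at 1.31, so these values too changed side with the scale. The sum of all kinesins likewise went from 0.952 to 2.385 times.

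The mitotic sum in contractile cells depended on how TOP2A was held. TOP2A was at 0.574 times its level in neither, and 6 contractile cells reached 10 or more per 10000. Within cells below 1 (741 contractile, 6161 neither), the mitotic sum was 230.8 against 185.4 CPM (1.25, 1.21 to 1.28), with KIF23 at 2.47 and KIF20A at 2.07, where 7.98% of genes passed 2-fold. TOP2A was also higher there, at 28.6 against 19.7 CPM. At 1 to under 3 (459 contractile cells) the mitotic sum was at 1.01 (0.993 to 1.04), with TOP2A at 1.01. At 3 to under 10 (374 contractile cells) it was at 0.866 (0.853 to 0.880), with 7 of 11 intervals below 1 and TOP2A at 0.847, and in the 6 cells at 10 or more it was at 0.921 (0.831 to 1.02). The sum had an interval above 1 in the cells below 1 and in none of the other 3 steps. Single mitotic kinesins were higher in other steps too: 4 of 11 had intervals above 1 at 1 to under 3, with KIF23 at 2.075 (1.92 to 2.24), and 4 of 11 at 3 to under 10, up to KIF23 at 1.19. At 1 to under 3, 3 of 11 had intervals below 1, and the lowest ratio was 0.571. In the cells below 1 KIF15 remained lower, at 0.605 (0.550 to 0.663), as did KIF11, at 0.854, and these were the only 2 of the 11 with intervals below 1. KIF5A (0.360), KIF13B (0.479), KIF6 (0.287) and KIF26A (0.264) kept their side of the limit in the cells below 1 and in both middle steps. KIF1A was at 2.02, 1.90 and 2.02 in these 3 steps and KIF26B at 3.15, 2.10 and 1.93, so each missed the limit in 1 step. None of the 6 passed a limit in the 6 cells at 10 or more, where KIF26B and KIF5A had 0 UMIs. In the cells below 1 the lower limit was met by 21.1% of genes, and by 4 kinesins (KIF5A, KIF13B, KIF6, KIF26A). Of the 5 measured cilium and Hedgehog genes, 1 met it in the cells below 1, 2 at 1 to under 3 and 3 at 3 to under 10. The share over all genes was not computed for the 2 middle steps.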

How the data were processed

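The authors deposited raw counts, as UMIs per gene and barcode, for 1 library. By the submitters' processing notes they used Cell Ranger 7.0.1, Seurat 4.4.0 and GRCh38. The annotation version was not given in the sources used here. The study's filter (2000 to 10000 genes, mitochondrial share below 0.1) was applied, and its upper limit was the treatment of doublets, with no caller run. Levels were summed UMIs per 1000000 (CPM) with exact Poisson intervals. Ratios had exact conditional 95% intervals. A gene at 1 CPM or more over both groups was past the limit at 2 or more, or 0.5 or less, with an interval that left out 1. Named genes were those past a limit, the most abundant of each group and their paralogs. Gene groups, lists and members were chosen with earlier results of these data known. Computation used scipy 1.17.1 and numpy 2.4.6 under Python 3.11.15, tables used pandas 2.3.3, and plots used matplotlib 3.10.9. The ratio interval was tried on simulated Poisson counts with independent UMIs, the model it assumes. That trial cannot show whether the intervals hold for UMIs clustered by cell. Gene overlaps came from GENCODE 44 and promoters from RefSeq (GRCh38.p14).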

Additional observations from a re-analysis of the deposited data

How the results depend on the processing

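No paired analysis was possible because there was 1 library. That library, its depth and the pooled clones limit every value: intervals cover counting error and not the spread between cultures. For a gene with 0 UMIs in the 83 newborn neuron-like cells, a floor of 3 counts allows a level of up to 2.35 CPM. For the 2 sums in 3 comparisons and for the members past a limit, other settings were tried.

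As UMIs per cell, the TOP2A ratio was 12.2 for the mitotic and 1.45 for the transport sum, with 2 transport genes at 2-fold or more. For contractile cells that setting gave 1.94 (mitotic, reversed) and 2.84 (transport), with 4 mitotic and 11 transport genes at 2-fold or more and 0 of either at 0.5 or less, and KIF13B (1.19) and KIF15 (1.12) turned upwards. The sum of all kinesins was at 2.385 times as UMIs per cell against 0.952 as a pooled level, contractile cells having more UMIs in all. For newborn neuron-like cells UMIs per cell gave 0.203 and 1.80, with 5 transport genes in place of 6 at 2-fold or more, KIF1B being at 1.98, and 2 at 0.5 or less. The share of all genes past a limit was not computed for UMIs per cell, so these counts have no background beside them. Thinned to 5000 UMIs, the mitotic and transport ratios were 10.05 and 1.102 (TOP2A) and 0.194 and 2.35 (newborn neuron-like), and the mitotic ratio was 0.843 for contractile cells. As the mean of per-cell levels, the mitotic ratios were 10.05, 0.842 (contractile) and 0.193 (newborn neuron-like). Without the 5% of cells with the most UMIs, they were 9.71, 0.791 and 0.162, and the transport ratios were 1.15 (contractile) and 2.37 (newborn neuron-like). With no filter on cells, the TOP2A ratio of the mitotic sum was 8.80.

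TOP2A at 5 or more against 0 UMIs gave 10.2 for the mitotic sum. Leaving out both states gave 9.46 and 1.11. A state limit of 3 per 10000 gave 0.795 for the mitotic sum in contractile cells, and 0.329 and 2.15 in newborn neuron-like cells, with 0 transport genes at 0.5 or less. Within TOP2A below 1, the contractile ratios were 1.25 (mitotic, reversed) and 1.11, with 2 mitotic genes at 2-fold or more and 0 at 0.5 or less, and the newborn neuron-like ratios were 0.341 and 2.46. Among single members past a limit, 2 of 284 values under other settings reversed, both named above, 102 lay outside the counting interval and 180 within it.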
